A study of Cuscuta campestris with 9 samples.

Results

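U1 small nuclear RNA (snRNA) is listed at 43 genomic intervals, here called copies, among 2535 intervals of the deposited table of short RNAs from Cuscuta campestris (dodder), a parasitic plant without roots. The copies were chosen as every interval that the table names U1 within its category of capped snRNA, told apart by scaffold, start, end and strand, and no measured value entered the choice. All RNA came from the wild-type strain "Dotti". Cut shoot tips, 4 to 6 cm long, had grown on beet and were then kept for 4 days under far-red light and pressure on 3% agar, so that haustoria, the organs that enter a host, formed without a host, and the parts with visible haustoria were used. Each of 3 RNA samples was divided into an untreated portion, a portion treated with decapping enzyme (Dcp) and a portion treated with the pyrophosphohydrolase RppH, which gave 9 libraries, 3 per treatment. Whether separate sets of plants gave the RNA samples is not in the labels, so every p-value measures the spread between these libraries only. The table lists no messenger RNA, so the labelled tissue was not checked against marker genes here.

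U1 is the snRNA of the particle that recognises the 5′ end of an intron by base pairing, at the start of spliceosome assembly. In plants, as in animals, RNA polymerase II transcribes it and it carries a cap at its 5′ end, and plant genomes hold many copies of the gene, of which some are pseudogenes. Library construction required a 5′ monophosphate. An RNA with a cap therefore enters a library after Dcp or RppH has trimmed its end, whereas an RNA with a triphosphate is expected after RppH only. The comparisons asked, for each U1 copy, how much of it became ligatable with each enzyme.

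Library totals, recovered from the deposited TPM, a count scaled to the total of its library, ran from 24974484 to 46034864, and a single count was worth 0.0217 to 0.0400 TPM. Length does not enter this TPM. The sources used here do not state to which copy a read went when it fitted several. The value of a single copy is therefore uncertain wherever copies are near-identical. The U1 total does not change with how counts were divided among copies. It would change if such reads were dropped or counted at several copies.

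U1 counts came almost entirely from 1 of the 43 copies. Over the 9 libraries U1 had 69923 counts, and 65016 of them (93.0%) belonged to the copy on scaffold 1 from 2523679 to 2523838 on the plus strand, 160 nt long, called the main copy below. The next copy in order, on scaffold 29 (739741 to 739898, plus strand, 158 nt), had 1999 counts, and the main copy exceeded it 32.5-fold. A second copy on scaffold 1 (2337806 to 2337965, plus strand, 160 nt) had 1448 counts, and a copy on scaffold 102 (848650 to 848807, plus strand, 158 nt) had 1063. These 4 copies held 99.4% of all U1 counts.

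A further 5 copies had at least 10 counts and together held 0.543% of U1 counts. On scaffold 249, all on the plus strand, they were the copies at 138403 to 138561 (159 nt, 193 counts), 154004 to 154161 (158 nt, 91 counts), 164562 to 164720 (159 nt, 35 counts) and 146474 to 146632 (159 nt, 21 counts). The fifth lay on scaffold 79 (327637 to 327795, plus strand, 159 nt) and had 40 counts. With fewer than 10 counts there were 3 copies. The copy on scaffold 1 at 2523947 to 2524097, only 151 nt long and 108 nt beyond the end of the main copy, had 8 counts, of which 1 was in Dcp replicate 1 and 7 in Dcp replicate 2. The copy on scaffold 29 at 746433 to 746590 had 5 counts, 1 after Dcp and 4 after RppH. The copy on scaffold 249 at 141496 to 141658, 163 nt long, had 4 counts, all in RppH replicate 3.

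The remaining 31 copies had 0 counts in every library. With 295078828 as the summed library total, a count of 0 allows a level of up to 0.0102 TPM per copy (3 counts), or a share of up to 0.00429% of U1 counts, for counting error only. They were on all scaffolds with U1 except scaffold 1. All 7 copies on scaffold 5 and the single copies on scaffolds 157, 4321 and 5006 were without counts, as were 2 of 4 on scaffold 29, 3 of 4 on scaffold 79, 9 of 10 on scaffold 102 and 7 of 12 on scaffold 249.

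**Figure D1:**
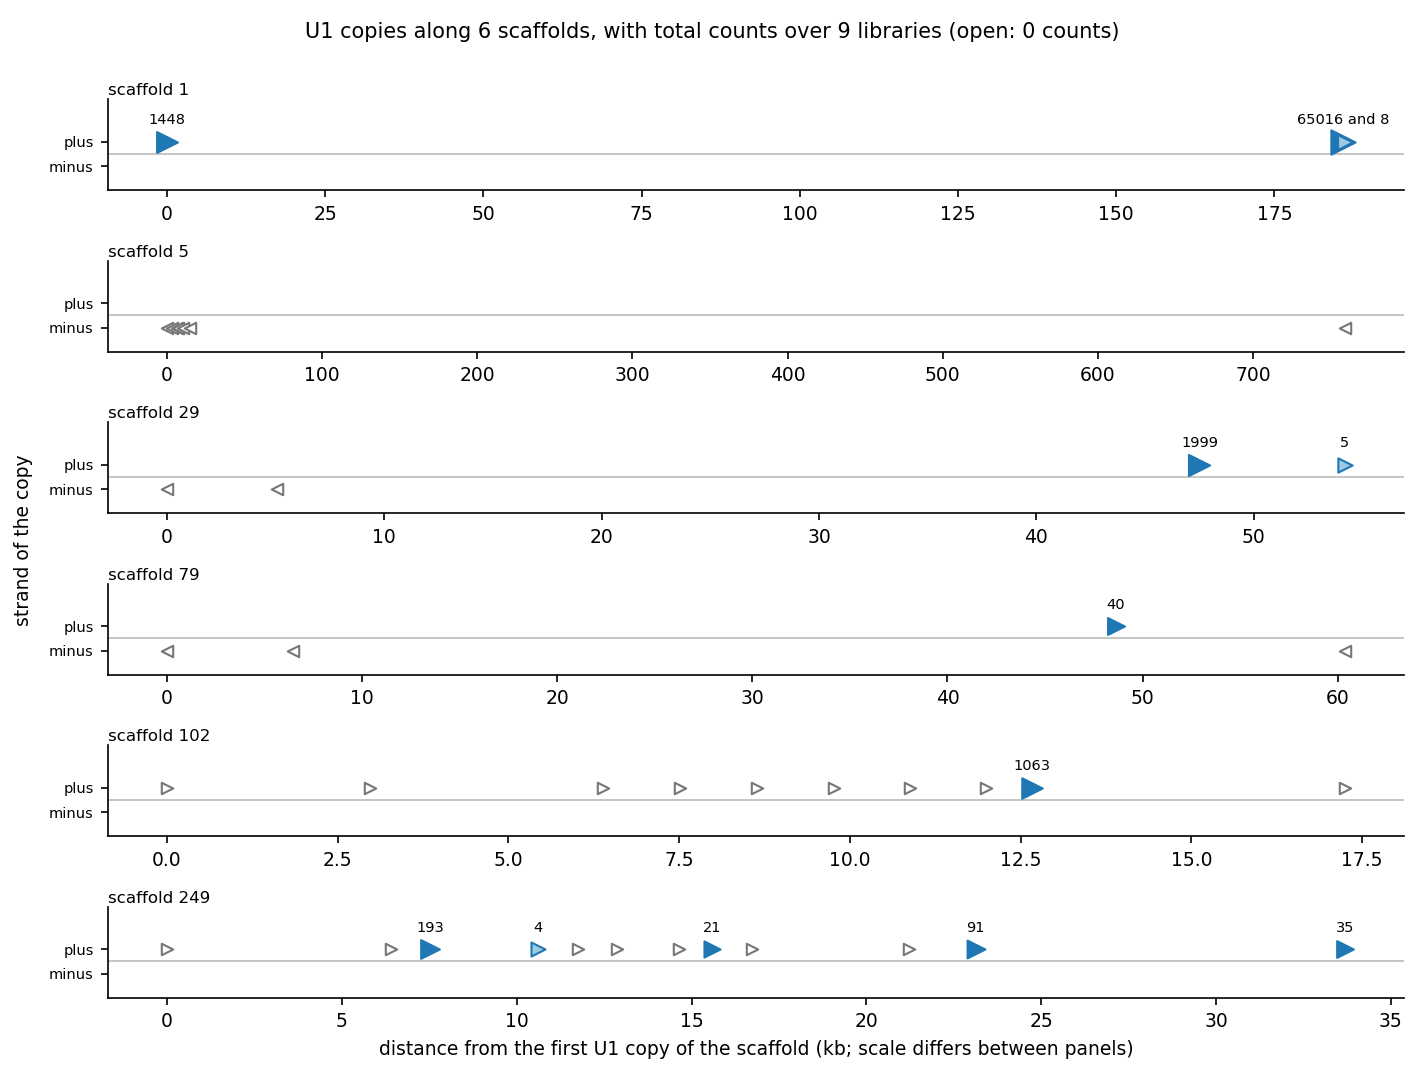
Position of U1 copies along 6 scaffolds, as distance from the first copy in kb, with the strand on the vertical axis; the single copies of 3 further scaffolds are not drawn. Filled arrowheads are copies with counts (pale under 10), the figure beside each is its total over 9 libraries, and open arrowheads are copies with 0 counts, which include every copy on the minus strand.

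Every copy with counts lay on the plus strand of its scaffold. Of 29 plus-strand copies 12 had counts, and of 14 minus-strand copies 0 had. U2, the snRNA that pairs with the branch site, showed the same split, with counts at 3 of 4 plus-strand and 0 of 12 minus-strand copies. Minus-strand counts were present elsewhere in the table: 4 of 6 minus-strand copies of U4, the partner of U6 before activation, had counts, with 325 in all, and so did 2 of 13 minus-strand copies of U5, the snRNA that contacts exon ends. All 1103 minus-strand pre-tRNA intervals had counts, but that list holds only intervals that were seen. What sets the split for U1 was not tested.

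Several copies without counts stood in regular arrays. Among 34 pairs of neighbouring U1 copies on the same scaffold, 31 were on the same strand, and 9 had starts 1115 to 1132 nt apart, 5 of these pairs on scaffold 102 and 4 on scaffold 249. The 13 copies in these pairs included 10 with 0 counts, and the other 3 held 218 counts together. On scaffold 102 the copy with 1063 counts followed a run of 6 copies without counts at this spacing, at 676 nt from the last of them. The main copy was apart from any array, with its neighbour upstream at 185713 nt.

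Scaffolds 29 and 79 carried a like arrangement of U1 and U2. On each, a pair of U1 copies on the minus strand without counts was followed, 42291 and 42021 nt further, by a U1 copy on the plus strand with counts. A U2 copy on the plus strand lay 4701 nt upstream of that U1 copy on scaffold 29 and 12398 nt upstream of it on scaffold 79. These U2 copies were the most abundant of their type, with 2972 counts on scaffold 29 and 4387 on scaffold 79. The U1 copies beside them had 1999 and 40.

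Copies with counts were close to the usual length, and so were most copies without. The median length was 159 nt for the 12 copies with counts and 158 nt for the 31 without. The 9 copies with at least 10 counts were all 158, 159 or 160 nt long, the ranges of the other copies being wider, from 146 to 172 nt for those with 0 counts. Of 16 copies of 158 nt, the commonest length, 4 had counts, as did 4 of 11 copies of 159 nt and 2 of 6 copies of 160 nt. The 2 copies of 160 nt, both on scaffold 1, carried 95.1% of U1 counts. Length alone therefore did not separate copies with and without counts.

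**Figure D2:**
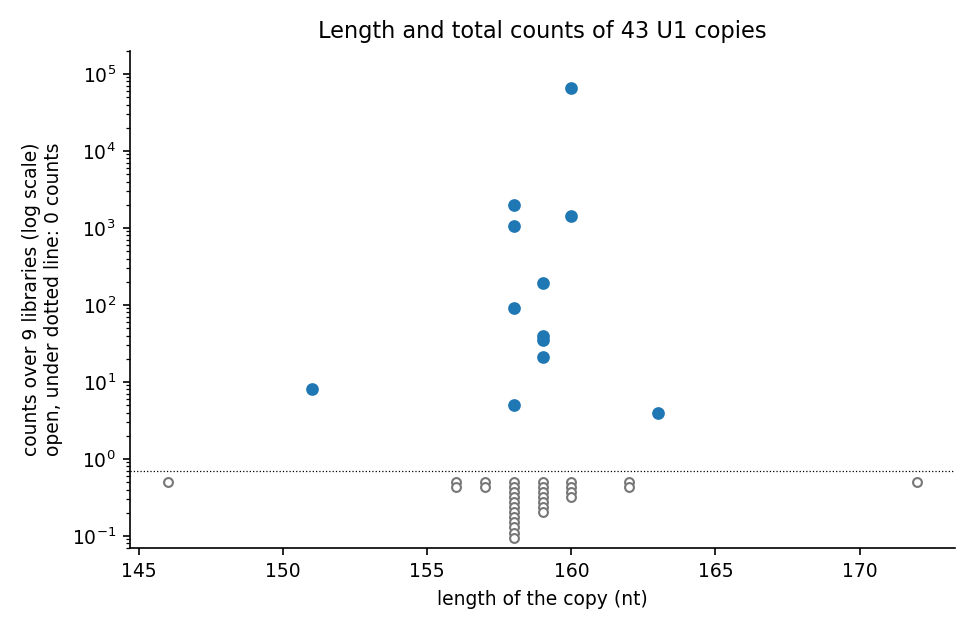
Total counts over 9 libraries on a log scale against the length in nt of each of the 43 U1 copies; filled points have counts, and open points stacked under the dotted line are the 31 copies with 0 counts. At 158, 159 and 160 nt copies with and without counts stand side by side.

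U1 was near the detection limit in untreated RNA and rose after either enzyme. The U1 total of RNA samples 1, 2 and 3 was 0.750, 0.282 and 0.605 TPM untreated, 408, 349 and 304 TPM after Dcp, and 400.2, 274 and 554 TPM after RppH. Every treated library was far above every untreated one, whereas the Dcp and RppH libraries overlapped. The mean was 0.546 ± 0.240 TPM untreated, 354 ± 51.9 TPM after Dcp and, with RppH, 409 ± 140 TPM (SD, n = 3 per treatment). The ratio to the untreated mean was 648 for Dcp and 749.7 for RppH (exact two-sided permutation p = 0.1 each, the smallest that 3 against 3 libraries allow, adjusted p = 0.15 over 3 comparisons). Within RNA samples 1, 2 and 3 the ratio was 543, 1238 and 502 for Dcp, and 533, 969.7 and 915 for RppH. Untreated RNA held 60 U1 counts in all, 54 of them from the main copy and 4 and 2 from the copies on scaffold 29 (739741) and scaffold 1 (2337806).

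The main copy had 27, 11 and 16 counts in the untreated libraries of RNA samples 1 to 3, that is 0.653, 0.239 and 0.605 TPM. It reached 375, 330 and 282 TPM after Dcp and 370, 258 and 512 TPM after RppH. The lowest treated library was the RppH library of RNA sample 2 and the highest that of RNA sample 3. The log2 fold change was 9.37 after Dcp (SE 0.569, edgeR adjusted p = 7.62e-35) and 9.57 after RppH (SE 0.574, edgeR adjusted p = 1.66e-35), and all 3 RNA samples moved upwards.

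The copy on scaffold 29 (739741) had 0.0968 TPM in untreated replicate 1 and 0 counts in the other two. After Dcp it stood at 14.8, 7.40 and 7.72 TPM and after RppH at 14.9, 5.61 and 16.2 TPM. Its ratio of pooled rates was 270.2 for Dcp (95% counting interval 105 to 994) and 361 for RppH (140.5 to 1326). The second scaffold 1 copy (2337806) had 2 untreated counts, both in replicate 2. It stood at 7.56, 6.10 and 7.07 TPM after Dcp and at 8.12, 5.37 and 13.2 TPM after RppH. Its ratios of pooled rates were 386 (95% counting interval 106 to 3194) and 529 (146 to 4377). The counting intervals of both copies pool the 3 libraries of a treatment and leave out the spread between them. For both copies treated and untreated libraries did not overlap, and both passed in each comparison (edgeR adjusted p = 5.65e-11 and 1.89e-10 for Dcp, 1.58e-11 and 4.94e-11 for RppH).

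The other 6 copies with at least 10 counts had 0 counts in untreated RNA, so their folds are lower bounds. Each is the pooled treated rate taken against 3 counts over the untreated group (0.0264 TPM). Such a bound allows for counting error in untreated RNA only, and single treated libraries can lie below it. The scaffold 102 copy (848650) stood at 8.26, 4.56 and 4.72 TPM after Dcp and 5.13, 3.56 and 8.93 TPM after RppH. It was at least 212-fold higher after Dcp and at least 233-fold higher after RppH (edgeR adjusted p = 1.15e-10 and 9.22e-11). On scaffold 249 the copy at 138403 stood at 0.896, 0.833 and 1.45 TPM after Dcp and 0.765, 0.280 and 1.98 TPM after RppH. Dcp raised it at least 39.3-fold and RppH at least 41.6-fold (edgeR adjusted p = 1.75e-05 and 6.27e-06). The copy at 154004 was at least 23.0-fold higher after Dcp and at least 14.6-fold higher after RppH (edgeR adjusted p = 0.000214 and 0.000247). These 2 copies lost their calls for Dcp without RNA sample 1 (edgeR adjusted p = 0.137 and 0.124).

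The 3 lowest copies rested on few counts. The scaffold 79 copy (327637) had 1, 2 and 4 counts after Dcp and 17, 6 and 10 after RppH. It passed after RppH, at least 14.6-fold higher (edgeR adjusted p = 0.000317), and did not pass after Dcp, with 0.0753 ± 0.0544 TPM (SD, n = 3; edgeR adjusted p = 0.0813). The copy at 146474 had 7, 2 and 0 counts after Dcp, which did not pass (edgeR adjusted p = 0.0684), and 6, 2 and 4 after RppH, which did (edgeR adjusted p = 0.00755, or 0.0582 once RNA sample was a block). The copy at 164562 had 9, 2 and 0 counts after Dcp and 6, 4 and 14 after RppH. It passed after RppH (edgeR adjusted p = 0.00116) and narrowly after Dcp (edgeR adjusted p = 0.0363), a call lost under 13 of 17 other settings, blocking by RNA sample among them (edgeR adjusted p = 0.206).

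**Figure D3:**
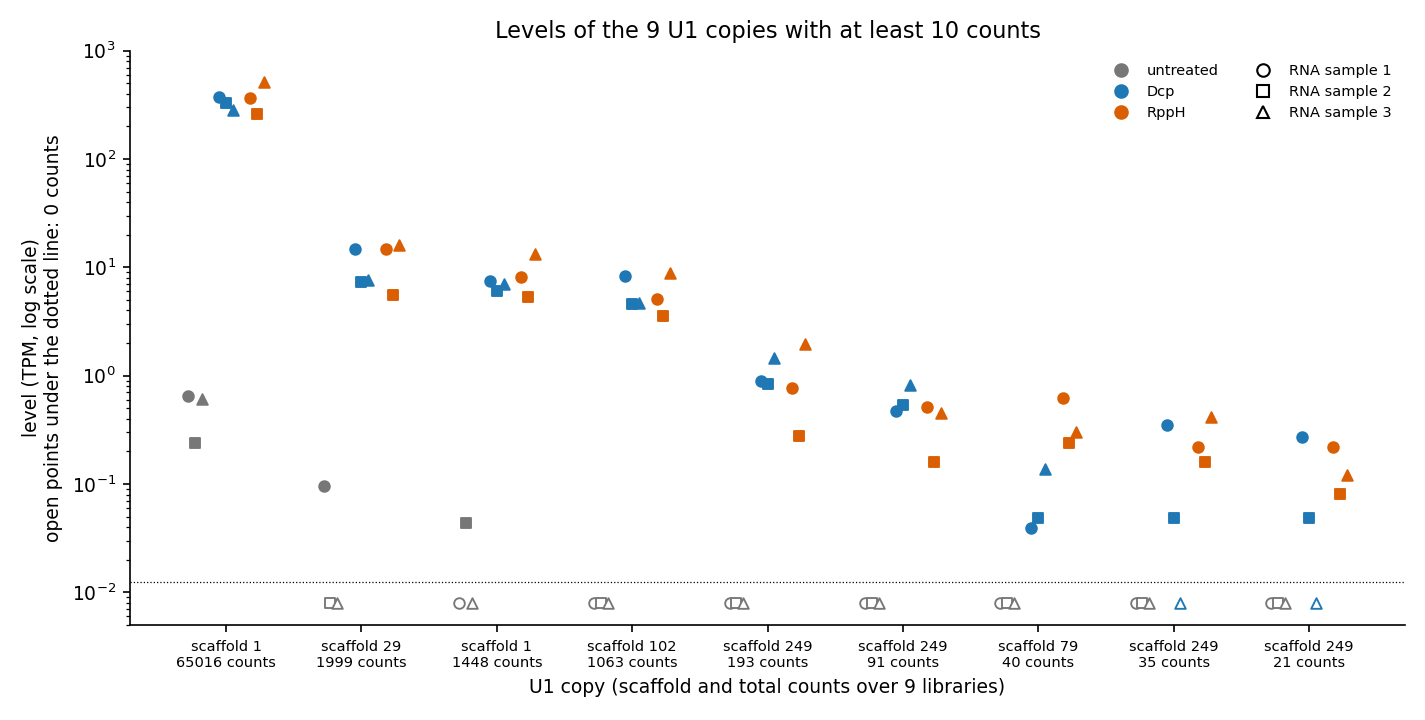
Level in TPM on a log scale of the 9 U1 copies with at least 10 counts, in order of total counts, with 1 point per library, colour for the treatment and shape for the RNA sample. Open points under the dotted line are libraries with 0 counts; the main copy lies between 258 and 512 TPM in treated libraries and at or under 0.653 TPM in untreated ones.

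In all, 7 of 9 tested copies rose after Dcp and 9 of 9 after RppH, and 0 fell in either by edgeR, by DESeq2 or at an unadjusted edgeR p under 0.05. Over all 354 loci tested in the table the share called higher was 13.6% for Dcp and 91.2% for RppH, so the U1 count for RppH lies near the background. Treated and untreated libraries did not overlap for 7 copies with Dcp and 9 with RppH, beside 11.6% and 73.4% of all loci. With every locus of 0 untreated counts set to its bound (6 U1 copies, 244 loci in all), the median log2 fold changes for Dcp and RppH were 5.30 and 5.38 over the 9 U1 copies and 0.25 and 3.35 over all 354 loci. Only the main copy had 10 counts in untreated RNA, so the other 8 entered the test through their treated libraries, and the counts among tested copies support nothing about all 43. With TMM or median-of-ratios factors 6 copies rose after Dcp, beside 9.32% of loci under either, and 5 after RppH, beside 18.6% and 18.9%. With RNA sample as a block 6 copies rose after Dcp and 8 after RppH, beside 8.47% and 57.3% of loci. DESeq2 called 6 and 9 copies, beside 14.4% and 64.7%, and a filter of at least 1 TPM in 3 libraries left 4 copies, all called, beside 58.8% and 97.1%.

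RppH and Dcp gave U1 levels that did not differ past the threshold. The RppH to Dcp ratio of the U1 total was 0.982, 0.784 and 1.82 in RNA samples 1, 2 and 3, and the ratio of means was 1.16 (exact two-sided permutation p = 0.7, adjusted p = 0.7). Without RNA sample 3 it was 0.890. The main copy had a log2 difference of 0.21, with a 95% interval of −0.56 to 0.98 from its SE of 0.393 (edgeR adjusted p = 0.64). This does not show that the levels were alike. The scaffold 29 copy (739741) had a difference of 0.29 (interval −1.09 to 1.67), the second scaffold 1 copy 0.37 (−1.06 to 1.79) and the scaffold 102 copy 0.01 (−1.46 to 1.48), again on the log2 scale. The median over the 9 copies was 0.29, and 3.34 over all 354 loci. Of the 9 copies 0 passed in either direction, beside 61.0% of all 354 loci called higher and 0 called lower by edgeR. DESeq2 called 0 copies and the block fit 0, beside 31.9% and 18.1% of loci called higher, as did the 1 TPM filter, beside 64.7%. At an unadjusted edgeR p under 0.05 there was 1 U1 copy, beside 42 of 69 microRNA and 189 of 267 pre-tRNA loci. This copy was the one on scaffold 79, where the log2 value of RppH exceeded that of Dcp by 2.31 (SE 1.17, edgeR adjusted p = 0.0752). It alone did not overlap between the enzymes, at 0.0390, 0.0490 and 0.138 TPM after Dcp and 0.619, 0.240 and 0.300 TPM after RppH, beside 63.0% of all loci.

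This comparison depended on what the libraries were scaled to. TMM factors over the 354 loci moved RppH against Dcp by −2.24 on the log2 scale and median-of-ratios factors by −2.15, and under either 6 of the 9 copies were lower after RppH and 0 higher, beside 3.39% and 3.11% of loci called lower and 2.82% called higher. As a share of all listed counts U1 went from 78.2 ± 2.93% after Dcp to 52.1 ± 1.60% after RppH (SD, n = 3). U1 counts per pre-tRNA count were 10.0 ± 0.962 after Dcp and 1.72 ± 0.166 after RppH (SD, n = 3).

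The share of the main copy in U1 counts, which does not depend on library scaling, differed little between the enzymes, while shares of some low copies differed more. The main copy held 92.0, 94.4 and 92.8% of U1 counts in Dcp replicates 1 to 3 and 92.4, 94.4 and 92.5% in RppH replicates 1 to 3. The means were 93.0 ± 1.21% and 93.1 ± 1.12% (SD, n = 3), with an exact two-sided permutation p of 0.9. The difference within RNA samples 1 to 3 was 0.396, 0.00451 and −0.318 percentage points. RNA sample 2 had the highest share after both enzymes. Exact 95% binomial intervals were 93.96 to 94.72% for Dcp replicate 2 and 91.4 to 92.5% for Dcp replicate 1. These intervals cover counting error only. In untreated libraries the share was 27 of 31, 11 of 13 and 16 of 16 counts, with exact 95% intervals of 70.2 to 96.4%, 54.6 to 98.1% and 79.4 to 100%, too wide to show a difference from treated RNA.

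Of the other copies, that on scaffold 29 (739741) took rank 2 in all 6 treated libraries. Its share was 3.64, 2.12 and 2.54% after Dcp and 3.72, 2.05 and 2.92% after RppH in RNA samples 1 to 3. It was highest in RNA sample 1 and lowest in RNA sample 2 with both enzymes. The second scaffold 1 copy held 1.97 ± 0.307% after Dcp and 2.12 ± 0.229% after RppH, and the scaffold 102 copy 1.63 ± 0.367% and 1.40 ± 0.185% (SD, n = 3). These copies changed places only in Dcp replicate 1, where the scaffold 102 copy was the higher. The copy at 138403 on scaffold 249 took rank 5 in all 6. On scaffold 249 the mean share went from 0.311% after Dcp to 0.217% after RppH for the copy at 138403 (ratio 0.696), from 0.180 to 0.0890% for that at 154004 (ratio 0.494) and from 0.0334 to 0.0629% for that at 164562 (ratio 1.89). Each of these ranges overlapped between the enzymes (exact two-sided permutation p = 0.5, 0.2 and 0.4, adjusted p = 0.75 each over 9 copies). Within RNA samples 1 to 3 the share at 138403 differed by −0.0288, −0.136 and −0.119 percentage points (RppH minus Dcp). That of the second scaffold 1 copy was higher by 0.175, 0.214 and 0.0628 points, and that of the scaffold 79 copy by 0.145, 0.0737 and 0.00877 points. With 3 pairs an exact two-sided paired test cannot go below 0.25, so no paired test of a share could pass. Of 9 copies compared, only the scaffold 79 copy had shares that did not overlap between the enzymes. Its share was 0.0230 ± 0.0195% after Dcp and 0.0988 ± 0.0512% after RppH (SD, n = 3; exact two-sided permutation p = 0.1, adjusted p = 0.75 over 9 copies).

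**Figure D4:**
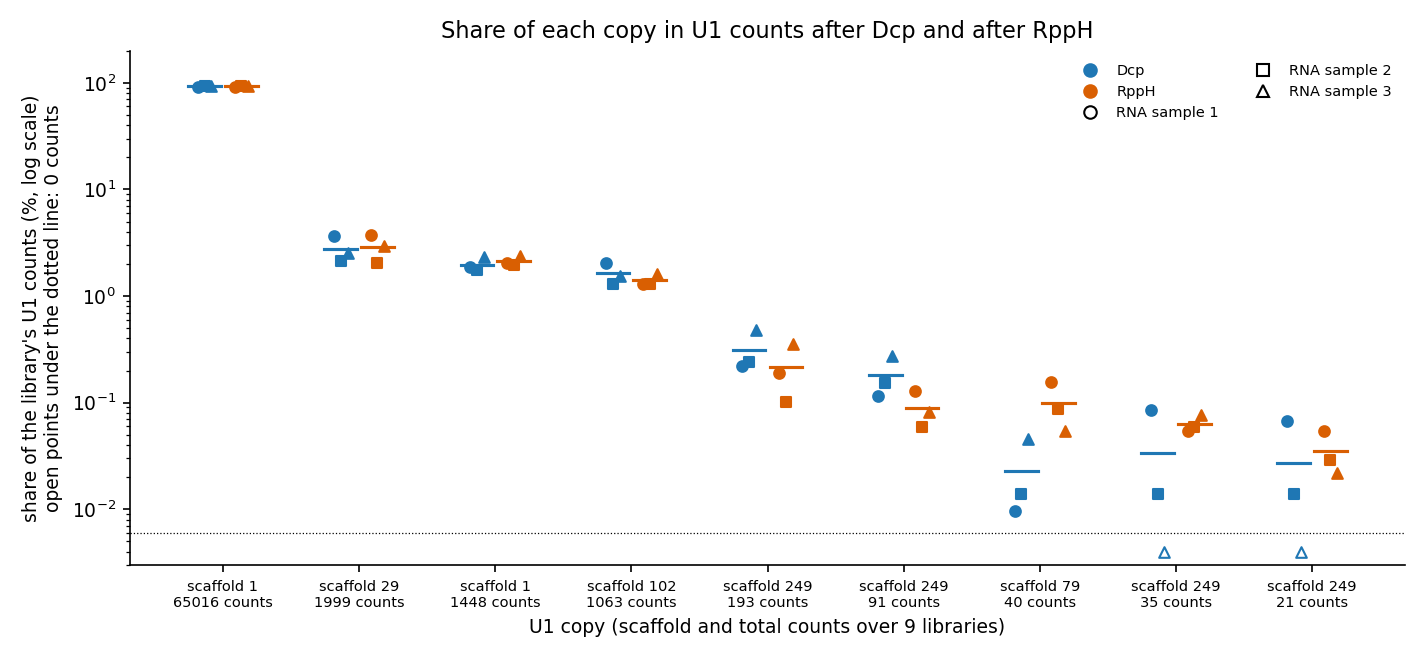
Share of each of the 9 U1 copies in the U1 counts of its library, in percent on a log scale, after Dcp and after RppH, with 1 point per library, shape for the RNA sample and a line at the mean of 3 libraries. The order of the first 5 copies is nearly the same in every library, and the scaffold 79 copy is the only 1 whose enzymes do not overlap.

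U1 was more unevenly spread over its copies than U2 or U4 in each treated library. Its first copy held 92.0 to 94.4% of its counts, whereas the first U2 copy held 46.6 to 67.4% of U2 counts and the first U4 copy 32.8 to 57.6% of U4 counts; this contrast was described and not tested. The first U5 copy held 70.0 to 100% of U5 counts, which numbered 1 to 28 per library, and exceeded the share of the first U1 copy in 4 of 6 treated libraries. Counts were present at 12 of 43 U1 copies, 3 of 16 U2 copies, 9 of 13 U4 copies and 4 of 22 U5 copies. U1 made up 88.6 ± 1.24% of snRNA counts after Dcp and 89.9 ± 1.83% after RppH (SD, n = 3; exact two-sided permutation p = 0.5). The log2 ratio of U1 to U2 counts was 3.11 ± 0.181 after Dcp and 3.32 ± 0.310 after RppH (SD, n = 3), a difference of 0.21 (exact two-sided permutation p = 0.5). The smallest p that 3 against 3 libraries allow is 0.1. This test therefore could not decide whether U1 and U2 differed in their response to RppH against Dcp.

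**Figure D5:**
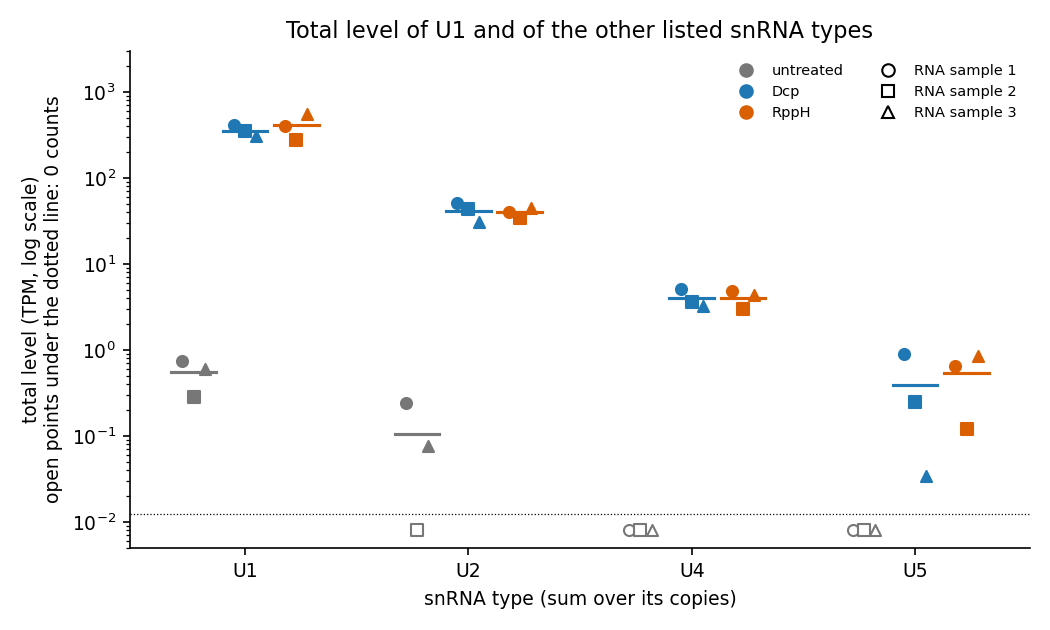
Total level in TPM on a log scale of U1, U2, U4 and U5, each summed over its copies, with 1 point per library, shape for the RNA sample and a line at the mean. Every treated library is above every untreated one for each type, and Dcp and RppH libraries overlap; the TPM is not scaled by length, so heights are not compared between types.

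Among the other spliceosomal snRNAs, 3 of 3 tested U2 copies, 5 of 5 U4 copies and 1 of 1 U5 copies rose after Dcp and after RppH. This stood beside 13.6% and 91.2% of all loci (edgeR, adjusted over all 354 loci). Between RppH and Dcp 0 of these copies differed, beside 61.0% of loci called higher. At an unadjusted edgeR p under 0.05 it was also 0, beside 42 of 69 microRNA and 189 of 267 pre-tRNA loci. DESeq2 called 0 as well, beside 31.9% of loci called higher. With RNA sample as a block 3 U4 copies rose after Dcp and 4 after RppH, beside 8.47% and 57.3% of loci. With TMM or median-of-ratios factors 2 U2, 2 U4 and 0 U5 copies rose after RppH against untreated RNA, beside 18.6% and 18.9% of loci, and 2 U2, 3 U4 and 0 U5 copies were lower after RppH than after Dcp, beside 3.39% and 3.11%. U4 and U5 were at 0 TPM in every untreated library, so their tested copies entered the test through their treated libraries. U2 stood at 0.242, 0 and 0.0757 TPM in untreated replicates 1 to 3. Counts among tested copies therefore support nothing about all 16 U2, 13 U4 and 22 U5 copies. U6, U11, U12, U4atac and U6atac matched 0 intervals. Each locus was also compared with the U1 total by its profile over the 9 libraries, as the difference between their shares of TPM per library (0 for identical profiles, 1 for disjoint ones). Of 25 loci with a mean of at least 1 TPM the most alike was the U2 copy on scaffold 79 (315044 to 315239), at 0.0556. The U4 copies on scaffold 99 (530255 to 530388) and scaffold 12 (1865644 to 1865777) followed at 0.0894 and 0.103, and the U2 copy on scaffold 29 (734845 to 735040) at 0.126. Next came the microRNA primary transcript ccm-IIM-12a on scaffold 7 (1280002 to 1280148) at 0.193, with a mean of 3.28 TPM after Dcp and 8.80 TPM after RppH.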

How the data were processed

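Short RNAs were sequenced in 9 libraries, 3 each from untreated, Dcp-treated and RppH-treated RNA, by splint ligation without size selection, per the labels' protocols. The authors deposited raw counts of transcripts per interval and library, per the file headers. The authors also deposited TPM values, which in each library equal the count divided by 1 constant (largest relative deviation 3.11e-15). The library total was recovered from this constant, although no source used here says which reads it includes. Named tools, per the submitters' processing notes, are bedtools, Bowtie2, cutadapt and SAMtools, and their versions and settings are not known here. Scaffold names carry the prefix of assembly Ccam0.32, and coordinates count from 1.

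Pre-tRNA intervals of a tRNA gene were added up, which gave 716 loci. The 354 that had 10 or more counts in the 9 libraries together were fitted with edgeR 4.0.16 in R 4.3.3 (quasi-likelihood test, library totals as offsets, no replicate block, two-sided, Benjamini-Hochberg at 0.05 over all loci). Each SE was derived from the log2 value and its F statistic. The fitted log2 value against untreated RNA is not printed for a copy with 0 untreated counts. Single values were compared by exact permutation tests (SciPy 1.17.1). Alternatives were a replicate block, TMM and median-of-ratios factors, DESeq2 1.42.0, other filters and leaving out libraries. The edgeR step was tested on simulated data over 354 loci: for Dcp against untreated it called 66% of 100 loci changed 4-fold and 100% of 100 changed 16-fold. Each simulated untreated mean was the rate of the locus pooled over all 9 libraries, with 1 fixed dispersion. In the real data 244 of the 354 loci had 0 untreated counts, and these shares do not give the recovery for such loci.

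Every U1 copy with at least 10 counts was given in full and the others by counts. Replicate numbers mark a shared RNA sample in the labels and so pair libraries across treatments. Between paired libraries, deviations from group means correlated by −0.0209 to 0.0665 over 354 loci. The rule for the members used no measured value, but members and lists were chosen with earlier results of these data known.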

Additional observations from a re-analysis of the deposited data

How the results depend on the processing

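The 9 tested U1 copies kept a positive log2 fold change against untreated RNA for both enzymes in every alternative run that tested them. For the 6 copies with 0 untreated counts this sign was fixed in advance. Only the 3 copies with untreated counts could have turned negative. The count of copies called after Dcp was 7 (beside 13.6% of all loci). It was 4 (beside 58.8%) when intervals needed 1 TPM in 3 libraries, a filter that only 4 copies passed. Leaving out libraries gave 4 to 8, the 4 without RNA sample 1. After RppH it was 9 (beside 91.2% of all loci), and leaving out libraries gave 8 to 9. With TMM it was 5 (beside 18.6%), with median-of-ratios factors 5 (beside 18.9%) and with the interval filter 4 (beside 97.1%). In the runs that left out libraries, 0 to 18 of 266 or 267 pre-tRNA loci were called higher after Dcp and 139 to 243 after RppH. Of 69 microRNA loci it was 0 to 23 after Dcp and 36 to 66 after RppH. Without RNA sample 1, the only loci outside U1 called after Dcp were 2 U2 copies. With the RNA sample as a replicate block 6 copies were called after Dcp and 8 after RppH (beside 8.47% and 57.3% of all loci), and 0 between the enzymes. The block changed no other call of U1 copies than the 2 given above.

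RppH against Dcp changed with the scaling, for which the cause was not tested beyond the shifts given above. TMM and median-of-ratios factors called 6 copies each, all lower after RppH, beside 3.39% and 3.11% of all loci called lower. Under TMM the log2 differences of the called copies were −2.08 (main copy), −1.97 (2337806), −1.99 (739741), −2.27 (848650), −2.51 (138403) and −3.06 (154004), the last 2 below 0 in the main setting too. Under median-of-ratios factors those of the called copies were −1.98, −1.86, −1.88, −2.17, −2.38 and −2.92 in the same order. The copies at 146474 and 164562 also turned negative without being called, at −1.61 and −1.04 under TMM and −1.53 and −0.98 under median-of-ratios factors. The replicate block gave −0.0454 for the scaffold 102 copy. When single libraries or RNA samples were left out, values that were never called ranged from −0.17 to 0.42 (main copy), −0.0344 to 0.63 (2337806), −0.12 to 0.69 (739741), −0.56 to 0.43 (848650), −1.01 to 0.38 (138403), −0.15 to 2.24 (146474) and −0.0122 to 3.27 (164562). The ratio of U1 totals was 0.666 as a share of listed counts, 0.171 relative to pre-tRNA, and 0.890 to 1.34 without 1 RNA sample. The difference in the main copy's share was −0.157 to 0.200 percentage points without 1 RNA sample. No permutation test could pass 0.05 at this number of libraries, and depth limits the 3 lowest copies, which had 21 to 40 counts each.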
